A study of Homo sapiens with 6 samples.

Results

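The unfolded protein response genes described here are 10 genes of the stress response of the endoplasmic reticulum (ER), picked by symbol from the 18999 features of the deposited FPKM table. They are the sensors ERN1, EIF2AK3 and ATF6, the transcription factors XBP1 and DDIT3, the chaperones and cofactors HSPA5, HSP90B1, SDF2L1 and DNAJB9, and HERPUD1, which acts in ER-associated degradation. All 10 were matched. The cells were MCF10A, an immortalised, non-tumorigenic human mammary epithelial line. They carried the retroviral vector pMSCVpuro with the pre-miR-203a hairpin (3 libraries), or the same vector without it (3 libraries, called empty vector). Both groups had been selected with puromycin and grown with horse serum, epidermal growth factor, insulin, cholera toxin and hydrocortisone. The labels call the material total RNA, yet their extraction text has an AGO2 immunoprecipitation, and they do not settle which of the pair these libraries came from. If AGO2-bound RNA was sequenced, the levels and fold changes below are those of that fraction and not of the cell's RNA. The labels also do not say that the libraries came from separate cultures or transductions. The p-values set group differences against the variation between these libraries, and that variation may be purely technical.

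The unfolded protein response is the set of signals that adjusts the folding capacity of the ER to its load. HSPA5, also called BiP, is the main lumenal chaperone and holds the sensors inactive until unfolded proteins draw it away. ERN1 (IRE1) then splices XBP1 mRNA, EIF2AK3 (PERK) phosphorylates eIF2α and so favours ATF4 and DDIT3 (CHOP), and ATF6 moves to the Golgi, where the proteases encoded by MBTPS1 and MBTPS2 release its transcription factor domain. Secretory epithelia such as the mammary gland are known to depend on this system. Gene-level values cannot separate spliced from unspliced XBP1 mRNA and say nothing of phosphorylation or cleavage.

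In pre-miR-203a libraries DNAJB9 stood at 2.30 times its empty-vector level, while the main chaperone HSPA5 stood at 0.960 times the empty-vector level. ATF6 was the other called gene of the 10, at 1.33 times. Of the 10 genes, all of which passed the filter on low values, 2 were called higher and 0 lower, and at an unadjusted p under 0.05 (limma) 3 were higher and 0 lower. Among all 11271 tested features 6.59% were called higher and 9.18% lower, 15.8% in all, and before adjustment 13.0% were higher and 17.1% lower. A call means an adjusted p under 0.05 from limma on log2(FPKM + 1), where FPKM is the read number scaled to feature length and to the reads of the library. In the authors' deposited table DESeq2 gave DNAJB9 and ATF6 an adjusted p under 0.05, against 18.3% of the features that had one there, and limma-voom on recovered reads called them too, against 17.5%. FPKM values of the groups did not overlap for 5 of the 10 genes, against 37.5% of tested features.

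The libraries had 7632063 to 35084590 reads over the listed features, and the lowest total was that of pre-miR-203a library 3. MIR203A, the hairpin in the vector, had 34827, 8476 and 20942 reads in pre-miR-203a libraries 1, 2 and 3, against 8, 21 and 22 in empty-vector libraries 1, 2 and 3. Scaled to depth these were 19005, 3699 and 24945 FPKM, against 4.63, 5.44 and 6.96 FPKM. Library 3 was thus the highest of the pre-miR-203a libraries by FPKM and library 2 the lowest. All 9 epithelial markers checked, KRT5 and CDH1 among them, averaged FPKM of 1 or more in both groups. The basal keratin KRT14 was near that cutoff, at means of 1.06 FPKM in pre-miR-203a libraries and 1.34 FPKM in empty-vector libraries. The summed level of the 9 markers spanned 1161 to 1565 FPKM in pre-miR-203a libraries and 1193 to 1464 in empty-vector libraries. These sums hold opposite shifts. KRT17 averaged 388 FPKM in pre-miR-203a libraries and 217 FPKM in empty-vector libraries, and TP63 5.70 and 10.6 FPKM. Neither was called (adjusted p = 0.182 and 0.0534, limma). The 2 of 7 leukocyte markers with values (CD79A and ITGAM) summed to at most 0.195 FPKM in pre-miR-203a libraries and 0.409 in empty-vector libraries. The 4 of 5 endothelial markers with values (PECAM1, CDH5, VWF and TEK) summed to at most 0.419 FPKM in pre-miR-203a libraries and 0.519 in empty-vector libraries. The 5 of 7 fibroblast markers with values (COL1A1, COL3A1, DCN, LUM and PDGFRB) summed to 5.53 to 9.50 FPKM in pre-miR-203a libraries and 3.89 to 6.91 in empty-vector libraries. Single markers moved with the group: of the 9 epithelial markers CDH1 and ITGB4 were called higher (log2 fold changes 0.85 and 0.51) and KRT5 lower (−0.68), and of 2 tested fibroblast markers COL1A1 was called higher (0.63), at means of 1.93 FPKM in pre-miR-203a libraries and 0.895 FPKM in empty-vector libraries (adjusted p from 0.0098 to 0.0491, limma). Their part in the results below was not tested. Fewer cells of a type and less RNA per cell cannot be told apart in such bulk values. Reads of mitochondrially encoded genes made up 5.04% to 7.04% in pre-miR-203a libraries and 4.16% to 8.55% in empty-vector libraries, and these shares too were not tested against the results.

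The first sequences shown are the promoter windows of DNAJB9 and HSPA5, since the results turn on the contrast between these genes. Each runs from 250 bases before to 50 after the RefSeq start on GRCh38.p14, 5′ to 3′ on the gene's strand. Capitals mark the fixed letters of matches to the ER stress element, CCAAT and CCACG with 9 bases between them (ERSE), and any other CCACG or its reverse complement.
DNAJB9 promoter, chr7:108569624-108569923, + strand: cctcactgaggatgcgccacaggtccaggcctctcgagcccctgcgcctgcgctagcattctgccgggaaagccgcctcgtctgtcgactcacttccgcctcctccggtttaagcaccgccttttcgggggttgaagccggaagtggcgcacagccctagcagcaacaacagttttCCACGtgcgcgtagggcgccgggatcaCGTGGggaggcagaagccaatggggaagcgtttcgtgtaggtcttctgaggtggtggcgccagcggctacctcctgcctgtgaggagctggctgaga
HSPA5 promoter, chr9:125241294-125241593, − strand: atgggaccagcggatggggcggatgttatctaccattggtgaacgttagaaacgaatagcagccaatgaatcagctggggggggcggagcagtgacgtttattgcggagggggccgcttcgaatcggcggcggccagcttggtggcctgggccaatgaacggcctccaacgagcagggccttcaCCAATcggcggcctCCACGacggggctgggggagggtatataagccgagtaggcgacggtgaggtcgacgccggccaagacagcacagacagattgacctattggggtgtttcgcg

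The ERSE, which NF-Y and ATF6 are known to bind, was searched on both strands together with ERSE-II (ATTGG and CCACG with 1 base between them) and the core TGACGTGG of the element bound by XBP1 (UPRE). An ERSE match lay in the windows of HSPA5, HSP90B1 and XBP1, and an ERSE-II match in those of HERPUD1 and SDF2L1, so 5 of the 10 genes had one or the other. Among all 27305 RefSeq promoter windows of that length 0.0806% held an ERSE and 0.0549% an ERSE-II match. The DNAJB9 window held neither, and it held CCACG 74 bases before the start and its reverse complement 47 bases before it (5′-most base of each match). This window begins after the GENCODE start of DNAJB9 (chr7:108569568), so bases before that start were not searched. CCACG by itself occurred in 37.9% of all windows, and the ERSE and ERSE-II matches each contain it. The UPRE core was in 0 of the 10 windows and in 0.795% of all. The matches in the other windows are shown with 4 bases on either side, and none of these 4 genes was called. Only exact matches were sought, and whether such elements bear on the values was not tested.
HSP90B1 ERSE, chr12:103930212-103930238, + strand: ctgaCCAATcggaaggagCCACGcttc
HSP90B1 ERSE in reverse, chr12:103930317-103930343, + strand: ggtgCGTGGtgcggcgcgATTGGtggg
XBP1 ERSE, chr22:28800599-28800625, − strand: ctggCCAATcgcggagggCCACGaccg
HERPUD1 ERSE-II, chr16:56932021-56932039, + strand: gccgATTGGgCCACGttgg
SDF2L1 ERSE-II in reverse, chr22:21642110-21642128, + strand: gaagCGTGGaCCAATcaaa

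Matches to the seed of the expressed microRNA were also looked up, since the study set out to find its targets. The mature miR-203a-3p (RefSeq, GRCh38.p14, chr14:104117469-104117490, + strand) has its seed, bases 2 to 8, in capitals.
miR-203a-3p: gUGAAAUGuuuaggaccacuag
In each gene's 3′ UTR, the longest in GENCODE 29 (GRCh38), a match to the whole seed, or to bases 2 to 7 followed by A, was found in 2 of the 10 genes, against 32.8% of 10185 tested features with a 3′ UTR. Both kinds together make an 8mer. ATF6 had an 8mer and a pair of matches to the whole seed, and HSPA5 had 1 match to the whole seed. DNAJB9 had only a 6mer, the match to bases 2 to 7, as did ERN1 and HERPUD1. DDIT3, EIF2AK3, HSP90B1, SDF2L1 and XBP1 had none of these. Capitals in the sites below mark the matched bases.
ATF6 8mer, chr1:161959148-161959170, + strand: tgagaaaacaCATTTCAAaacca
ATF6 seed match, chr1:161959010-161959032, + strand: tcctttttgcCATTTCActtatt
ATF6 further seed match, chr1:161963847-161963869, + strand: ttagagatgcCATTTCAccagga
HSPA5 seed match, chr9:125235928-125235950, − strand: aggcaaggggCATTTCAcagtgc
DNAJB9 6mer, chr7:108573438-108573460, + strand: acaagtgcatgATTTCActttaa

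DNAJB9 encodes an ER J protein, known as ERdj4, that binds HSPA5, helps it to hold ERN1 inactive and is known as a target of spliced XBP1. The gene (ENSG00000128590.5) spans chr7:108569568-108574850 on the + strand. It had 17.2, 11.7 and 10.3 FPKM in pre-miR-203a libraries 1, 2 and 3, against 6.24, 4.89 and 5.87 FPKM in empty-vector libraries 1, 2 and 3. The lowest pre-miR-203a value thus exceeded the highest empty-vector value, and library 1 with pre-miR-203a stood above the other two of its group. These levels rested on 727, 616 and 200 reads, against 249, 435 and 428. The means were 13.1 ± 3.64 FPKM in pre-miR-203a libraries and 5.67 ± 0.700 FPKM in empty-vector libraries (SD, n = 3 each), a log2 fold change of 1.05 ± 0.19 (SE) with limma adjusted p = 0.0117. In the authors' deposited table, with its sign turned to pre-miR-203a over control, the log2 fold change was 1.23 with an SE of 0.24. DNAJB9 ranked 174 of the 11271 tested features from the highest fitted change. The call held when any single library was left out, with adjusted p of up to 0.0454 (limma).

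DNAJB9 overlaps the ends of PNPLA8, a phospholipase gene, and of THAP5, which lie on the opposite strand, and whether reads were counted by strand is not given in the sources used here. PNPLA8 had 15.6, 12.2 and 10.3 FPKM in pre-miR-203a libraries, against 10.1, 7.06 and 9.06 FPKM in empty-vector libraries, with a log2 fold change of 0.49 ± 0.18 (SE; adjusted p = 0.12, limma). THAP5 had 3.17, 3.66 and 2.20 FPKM in pre-miR-203a libraries, against 4.00, 4.28 and 4.40 FPKM in empty-vector libraries (log2 fold change −0.40 ± 0.16; adjusted p = 0.137, limma). PNPLA8 thus stood higher and THAP5 lower in pre-miR-203a libraries without passing the test, and the part of shared reads in the DNAJB9 value was not tested.

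**Figure D1:**
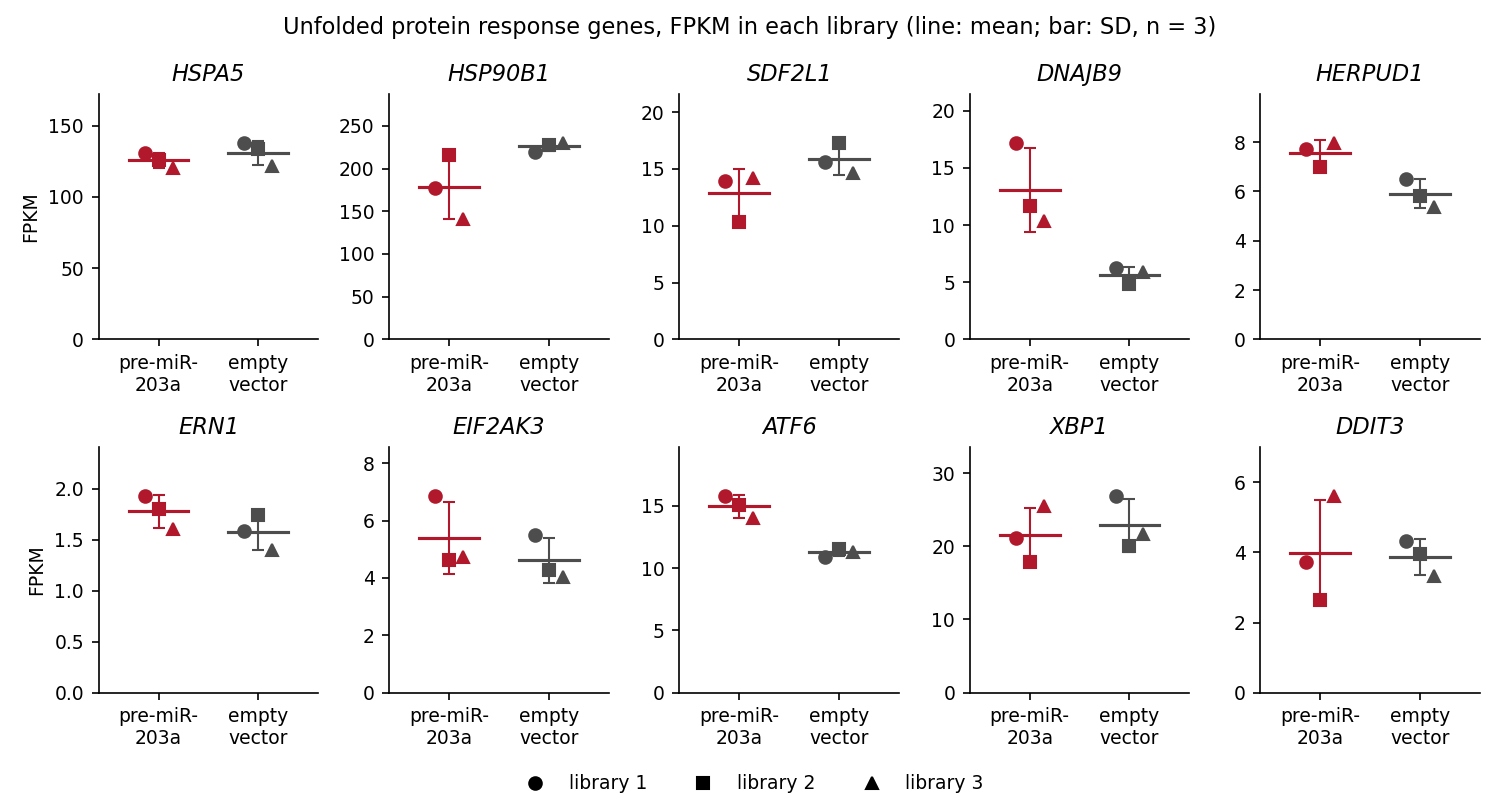
FPKM (y axes, linear from 0) of the 10 genes in each pre-miR-203a library and each empty-vector library; symbols mark the library number, lines the mean and bars the SD of 3 libraries. DNAJB9 sits at 10.3 to 17.2 in pre-miR-203a libraries, above 4.89 to 6.24 in empty-vector libraries, while HSPA5 lies between 120.3 and 138 in both.

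The lumenal chaperones did not share the change of DNAJB9. HSPA5 (ENSG00000044574.8, chr9:125234853-125241330, − strand) had 131, 126 and 120.3 FPKM in pre-miR-203a libraries 1, 2 and 3, against 138, 133 and 122 FPKM in empty-vector libraries 1, 2 and 3. The group ranges overlapped, with the pre-miR-203a library the lower in 3 of 3 pairs of the same number, and its log2 fold change was −0.06 with a 95% interval of −0.31 to 0.19 (adjusted p = 0.78, limma), an interval whose upper end lies under the lower end of that of DNAJB9, 0.60 to 1.5. HSP90B1, the ER form of HSP90 also called GRP94, had 178, 216 and 141 FPKM in pre-miR-203a libraries, against 219, 228 and 230.2 FPKM in empty-vector libraries. Every pre-miR-203a library was lower than every empty-vector library, with pre-miR-203a library 3 the lowest, but the difference did not pass the test (log2 fold change −0.36, 95% interval −0.75 to 0.03; adjusted p = 0.192, limma). The listed features include HSP90B2P and HSP90B3P, processed pseudogenes of HSP90B1, and how reads were shared among these copies is not given in the sources used. SDF2L1, an ER protein that works with HSPA5 and J proteins, had 13.9, 10.3 and 14.2 FPKM in pre-miR-203a libraries, against 15.6, 17.3 and 14.6 FPKM in empty-vector libraries. Here too the groups did not overlap, narrowly between the libraries numbered 3, and the test was not passed (log2 fold change −0.29, 95% interval −0.64 to 0.05; adjusted p = 0.231, limma).

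HERPUD1, a membrane protein that gathers the ER-associated degradation machinery, was the closest of the genes that were not called. It had 7.71, 6.97 and 7.97 FPKM in pre-miR-203a libraries, against 6.52, 5.82 and 5.37 FPKM in empty-vector libraries. All pre-miR-203a libraries stood above all empty-vector libraries, with a log2 fold change of 0.31 ± 0.12 (SE; unadjusted p = 0.0296, adjusted p = 0.118, limma). It did not pass in any of 16 other settings, in which the adjusted p ran from 0.0821 to 0.391 (limma).

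Of the 3 sensors only ATF6 passed the test, and its change was small. ATF6 (ENSG00000118217.6, chr1:161766294-161964070, + strand) had 15.8, 15.1 and 14.0 FPKM in pre-miR-203a libraries 1, 2 and 3, against 10.9, 11.5 and 11.3 FPKM in empty-vector libraries 1, 2 and 3. The groups were tight and did not overlap, with means of 15.0 ± 0.915 FPKM in pre-miR-203a libraries and 11.3 ± 0.305 FPKM in empty-vector libraries (SD, n = 3 each) and a log2 fold change of 0.38 ± 0.10 (SE; adjusted p = 0.0438, limma). ATF6 is the gene with the 8mer and the pair of seed matches shown above, and a higher value would mean different things in total RNA and in AGO2-bound RNA. In the authors' deposited table, with the sign turned, the ATF6 difference was 0.43 on the log2 scale, and DESeq2 gave it an adjusted p of 0.0182. The limma call ended when log2(FPKM + 1) was fitted with the replicate number as a block (adjusted p = 0.0738, limma). It also ended when any 1 library but pre-miR-203a library 3 was left out (adjusted p from 0.0933 to 0.188, limma). By limma-voom on recovered reads with the same block ATF6 was still called.

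ERN1 had 1.93, 1.80 and 1.6 FPKM in pre-miR-203a libraries, against 1.58, 1.74 and 1.39 FPKM in empty-vector libraries. EIF2AK3 had 6.86, 4.63 and 4.72 FPKM in pre-miR-203a libraries, against 5.51, 4.27 and 4.05 FPKM in empty-vector libraries. The group ranges overlapped for both kinases, yet between libraries of the same number both were higher with pre-miR-203a in 3 of 3 pairs. With the replicate block the adjusted p was 0.483 for ERN1 and 0.281 for EIF2AK3 (limma). Their log2 fold changes were 0.11 (95% interval −0.17 to 0.39) for ERN1 and 0.18 (−0.22 to 0.59) for EIF2AK3, with adjusted p of 0.596 and 0.543 (limma).

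Neither transcription factor of the set passed the test. XBP1 had 21.2, 17.9 and 25.4 FPKM in pre-miR-203a libraries, against 26.9, 20.0 and 21.7 FPKM in empty-vector libraries, and the log2 fold change was −0.09 with a 95% interval of −0.48 to 0.30 (adjusted p = 0.78, limma). DDIT3, which encodes the pro-apoptotic factor CHOP, had 3.72, 2.64 and 5.61 FPKM in pre-miR-203a libraries, against 4.33, 3.95 and 3.33 FPKM in empty-vector libraries. Its pre-miR-203a libraries lay on both sides of the empty-vector range. DDIT3 rested on 56 to 81 reads in pre-miR-203a libraries and 89 to 181 in empty-vector libraries, and its interval, −0.51 to 0.51 around a log2 fold change of −0.0017, was the widest of the 10 (adjusted p = 0.997, limma). It overlaps other annotated genes on both strands, so its reads may not all be its own. In libraries numbered 3 DDIT3 was higher with pre-miR-203a than with the empty vector, and in those numbered 1 and 2 it was lower.

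**Figure D2:**
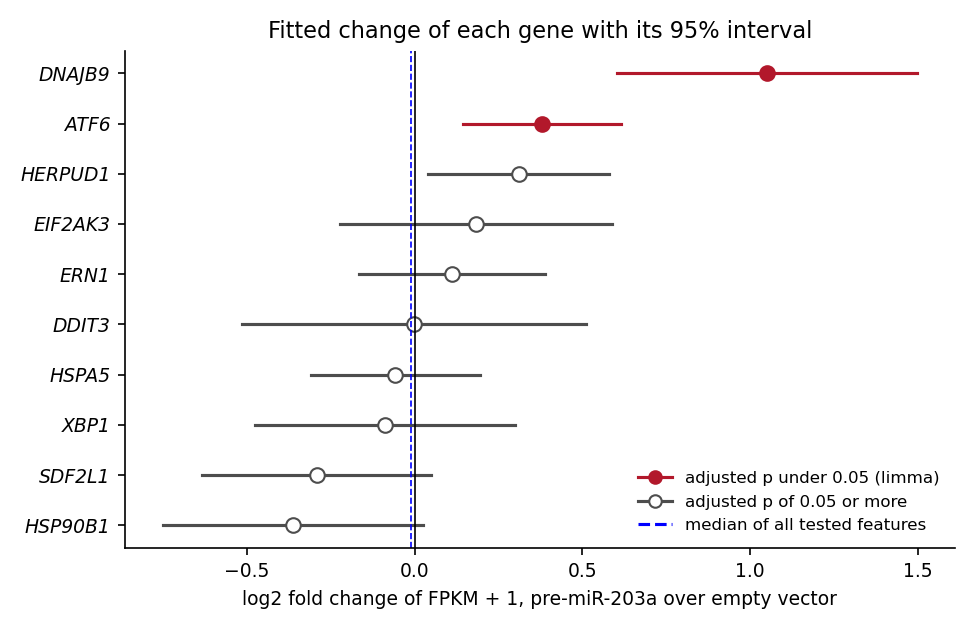
Log2 fold change of FPKM + 1, pre-miR-203a over empty vector, for each of the 10 genes (points) with its 95% interval from limma (lines). DNAJB9 at 1.05 and ATF6 at 0.38 are the filled points past the threshold, and the dashed line marks −0.01, the median of all tested features.

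Set against each other within a library, DNAJB9 gained on every other gene of the set. For each 100 FPKM of HSPA5 there were 13.1, 9.24 and 8.58 FPKM of DNAJB9 in pre-miR-203a libraries 1, 2 and 3, against 4.52, 3.66 and 4.82 in empty-vector libraries 1, 2 and 3. This ratio does not depend on the scaling between libraries. The mean log2 ratio was −3.30 ± 0.33 in pre-miR-203a libraries and −4.54 ± 0.21 in empty-vector libraries (SD, n = 3 each), a difference of 1.24 (exact permutation test, two-sided, p = 0.1, the smallest that 3 against 3 libraries can give). The ratio of DNAJB9 to each of the 9 other genes was higher in every pre-miR-203a library than in every empty-vector library. The rise of the mean ratio ran from 1.72 times over ATF6 to 2.97 times over HSP90B1. The gap was narrowest over DDIT3, where the lowest pre-miR-203a library had 184 FPKM of DNAJB9 per 100 of DDIT3 and the highest empty-vector library 176. All these ratios share the DNAJB9 values, and only that over HSPA5 was tested. The genes were chosen with earlier results of these data known, so the ratios restate the DNAJB9 difference and are not separate support for it.

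**Figure D3:**
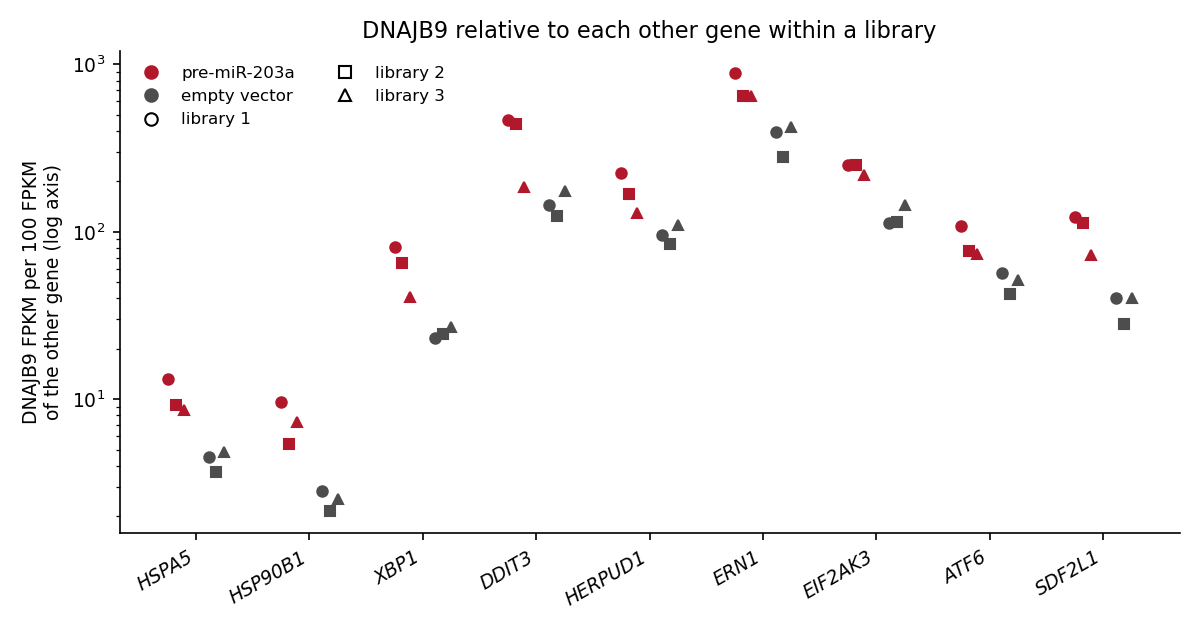
DNAJB9 FPKM per 100 FPKM of each other gene (y axis, log scale), with pre-miR-203a libraries on the left and empty-vector libraries on the right for each gene, and symbols for the library number. Over HSPA5 the pre-miR-203a libraries lie at 8.58 to 13.1 and the empty-vector libraries at 3.66 to 4.82.

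FPKM is scaled to length, so levels of different genes can be ordered, but the order rests on the length counted for each gene. That length was 2538 bases for DNAJB9, 5062 for HERPUD1 and 10864 for ERN1, and which transcripts the cells express was not examined. HSP90B1, HSPA5 and XBP1 were the highest of the 10 in both groups, at means of 178, 126 and 21.5 FPKM in pre-miR-203a libraries and 226, 131 and 22.9 FPKM in empty-vector libraries, and none of these neighbours overlapped in range. DNAJB9 ranked 5 of 10 in pre-miR-203a libraries, where its range overlapped those of ATF6 above and SDF2L1 below it. It ranked 7 of 10 in empty-vector libraries, where its range overlapped those of HERPUD1 above and EIF2AK3 below it. DDIT3 and ERN1 were the lowest in both groups, and ERN1, at means of 1.78 FPKM in pre-miR-203a libraries and 1.57 FPKM in empty-vector libraries, lay below the range of DDIT3 in each.

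Across the 6 libraries log2(FPKM + 1) of ATF6 followed that of DNAJB9 most closely among the other 9 genes (Pearson r = 0.951), then HERPUD1 (0.83), while HSPA5 (−0.212) and XBP1 (−0.193) did not follow it. Among all tested features with a gene symbol the most similar patterns were those of DDAH1 (r = 0.998), KIF13A (0.997) and CFLAR (0.996). These values describe 6 libraries in 2 groups, so a gene higher in pre-miR-203a libraries tends to score high. A gene lower in them tends to score negative. SDF2L1 stood at −0.619, HSP90B1 at −0.593 and DDIT3 at −0.0997, while EIF2AK3 stood at 0.696 and ERN1 at 0.656. KIF13A itself was not called (log2 fold change 0.17, adjusted p = 0.343, limma).

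The wider pathway was read from 6 lists with 97 distinct genes, the 10 included, of which 92 were tested. Of these 5 were called higher and 4 lower, against 6.59% and 9.18% of all tested features, and the median log2 fold change was −0.02, against −0.01 over all. DNAJB9 had the highest log2 fold change of the 92, ahead of SYVN1. The calls thus made up no larger a share of the pathway than of all tested features.

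Among 8 ER J proteins DNAJB9 was the only one called, against 15.8% of all tested features, and the list's median log2 fold change was −0.07. DNAJB11 (−0.31), DNAJC3 (−0.30), DNAJC10 (−0.28) and SEC63 (−0.25), ER cochaperones of HSPA5 that work in folding or translocation, were below 0 with adjusted p from 0.167 to 0.286 (limma). DNAJC1, DNAJB12 and DNAJB14 were above 0 without passing the test. Without pre-miR-203a library 3, 2 J proteins were called higher. Of the 17 tested chaperones and foldases 0 were called, while before adjustment 1 was lower and 0 higher at a limma p under 0.05, and 14 of the 17 had a log2 fold change below 0 (median −0.07). Among all tested features 15.8% were called, 17.1% were lower before adjustment and 51.7% had a log2 fold change below 0. The chaperone list gene lower before adjustment was MANF, a secreted ER stress protein, with 30.3, 31.4 and 39.6 FPKM in pre-miR-203a libraries, against 47.0, 44.0 and 46.0 FPKM in empty-vector libraries (log2 fold change −0.43 ± 0.13; adjusted p = 0.061, limma). By limma-voom on recovered reads 0 of the 17 were called as well. Leaving out pre-miR-203a library 3 gave 2 lower calls in this list.

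Of 12 tested genes that sense stress or control eIF2α, 2 were called higher and 0 lower (median log2 fold change 0.15), against 6.59% and 9.18% of all tested features. The genes called were ATF6 and MBTPS1, which encodes the site-1 protease that cleaves ATF6 protein in the Golgi. MBTPS1 had 17.4, 16.9 and 17.4 FPKM in pre-miR-203a libraries, against 12.8, 13.3 and 11.6 FPKM in empty-vector libraries, so the groups lay well apart (log2 fold change 0.43 ± 0.10; adjusted p = 0.0287, limma). That call ended with the replicate block on log2(FPKM + 1) (adjusted p = 0.055, limma) and when any 1 library but pre-miR-203a library 3 was left out (0.0636 to 0.117, limma). By limma-voom with the same block MBTPS1 was still called. For MBTPS2, the site-2 protease, the fitted difference on the log2 scale was 0.11 (adjusted p = 0.543, limma), and PPP1R15B, a subunit of the eIF2α phosphatase, reached 0.35 (adjusted p = 0.061, limma), both uncalled.

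In ER-associated degradation 2 of 18 tested genes were called higher and 1 lower, against 6.59% and 9.18% of all tested features. The median log2 fold change of this list was 0.10. DERL1, a channel subunit of the retrotranslocation complex, had 8.60, 10.8 and 8.76 FPKM in pre-miR-203a libraries, against 16.8, 17.3 and 16.8 FPKM in empty-vector libraries. Its mean fell to 0.555 times the empty-vector mean, and every pre-miR-203a library was lower than every empty-vector library (log2 fold change −0.79 ± 0.12; adjusted p = 0.0069, limma), and its 3′ UTR holds an 8mer match to miR-203a-3p. So did those of ATF6, called higher, and of the uncalled SEL1L, DNAJC10 and SPCS3, so 5 of the 92 pathway genes had an 8mer, against 7.34% of all features with a 3′ UTR. A match to the whole seed or to bases 2 to 7 followed by A was present in 31 of the 92, against 32.8%. Besides DERL1, the genes called lower included SEC24D and PSAT1 with such a match and MTHFD2 without one. Of the genes called higher only ATF6 had such a match, while DNAJB9 and MBTPS1 had only a 6mer and SYVN1 and OS9 had none of these. Whether the matches bear on the values was not tested. SYVN1, the ubiquitin ligase HRD1, had 13.2, 13.9 and 15.2 FPKM in pre-miR-203a libraries, against 9.67, 10.9 and 7.60 FPKM in empty-vector libraries (log2 fold change 0.55 ± 0.14; adjusted p = 0.0416, limma). OS9, a lectin that brings glycoproteins to the same ligase, had 39.8, 35.7 and 39.0 FPKM in pre-miR-203a libraries, against 29.6, 28.3 and 25.9 FPKM in empty-vector libraries (log2 fold change 0.44 ± 0.11; adjusted p = 0.0314, limma). The groups overlapped for none of these 3 genes, and they did not overlap for 37.5% of all tested features. The call of DERL1 held without any single library, while that of SYVN1 ended without any one of them (adjusted p 0.0527 to 0.118, limma). That of OS9 ended without pre-miR-203a library 1 or any 1 empty-vector library (0.0933 to 0.113, limma), and both ended with the replicate block on log2(FPKM + 1) (0.0687 and 0.0518, limma). SYVN1 and OS9 were still called by limma-voom with the same block.

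The 18 genes of protein translocation and trafficking known as XBP1 targets had a median log2 fold change of −0.16. Of these 0 were called higher and 1 lower, against 6.59% and 9.18% of all tested features. Without pre-miR-203a library 3, 2 were called lower. The gene called with all libraries was SEC24D, a cargo adaptor of COPII vesicles, with 2.57, 2.16 and 2.06 FPKM in pre-miR-203a libraries, against 4.63, 4.09 and 4.75 FPKM in empty-vector libraries (log2 fold change −0.75 ± 0.12; adjusted p = 0.008, limma). Of 19 tested genes of the PERK, ATF4 and CHOP branch 0 were called higher and 2 lower (median log2 fold change 0.00), against the same shares of all features. Both genes called encode biosynthetic enzymes. PSAT1, of serine synthesis, had 24.0, 30.4 and 24.1 FPKM in pre-miR-203a libraries, against 48.9, 54.6 and 44.2 FPKM in empty-vector libraries (log2 fold change −0.89 ± 0.14; adjusted p = 0.0076, limma). MTHFD2, of mitochondrial folate metabolism, had 32.4, 36.9 and 31.0 FPKM in pre-miR-203a libraries, against 46.3, 46.3 and 46.6 FPKM in empty-vector libraries (log2 fold change −0.46 ± 0.11; adjusted p = 0.026, limma). The MTHFD2 call ended without pre-miR-203a library 1 or any one empty-vector library (0.0737 to 0.114, limma), and leaving out pre-miR-203a library 3 gave 4 lower calls in the branch. The stress-induced factors ATF4 (log2 fold change −0.14), ATF3 (−0.13) and TRIB3 (−0.14) were not called, with adjusted p from 0.743 to 0.806 (limma). CHAC1, ASNS and VLDLR did not reach the filter on low values.

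**Figure D4:**
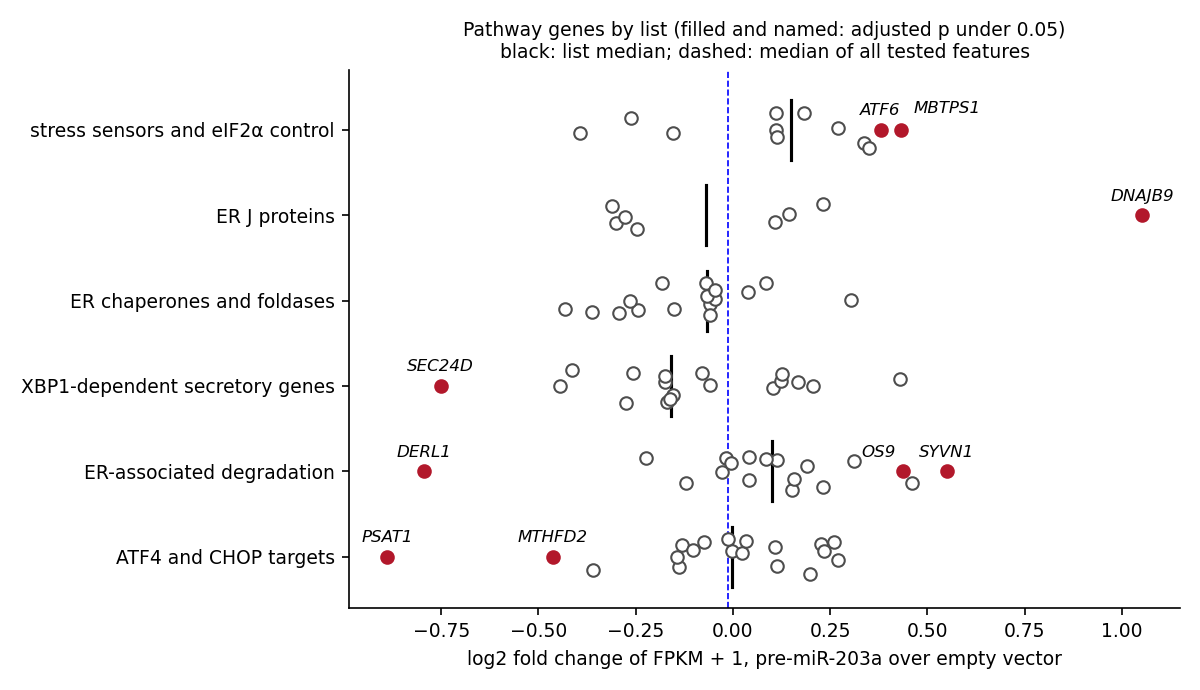
Log2 fold change of FPKM + 1, pre-miR-203a over empty vector, of every tested gene in the 6 lists (points; filled and named where adjusted p was under 0.05 by limma), with each list's median as a black line and the median of all features dashed. DNAJB9 stands alone at 1.05, and PSAT1, DERL1 and SEC24D lie lowest at −0.89, −0.79 and −0.75.

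The calls of the 2 genes differed in how far they depended on the settings. DNAJB9 passed in 16 of 16 alternatives with adjusted p from 0.0054 to 0.0454, and its log2 fold change ran from 0.85 to 1.24 (limma). ATF6 passed in 8 of 16 with adjusted p from 0.0198 to 0.225, and its log2 fold change ran from 0.30 to 0.43 (limma).

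**Figure D5:**
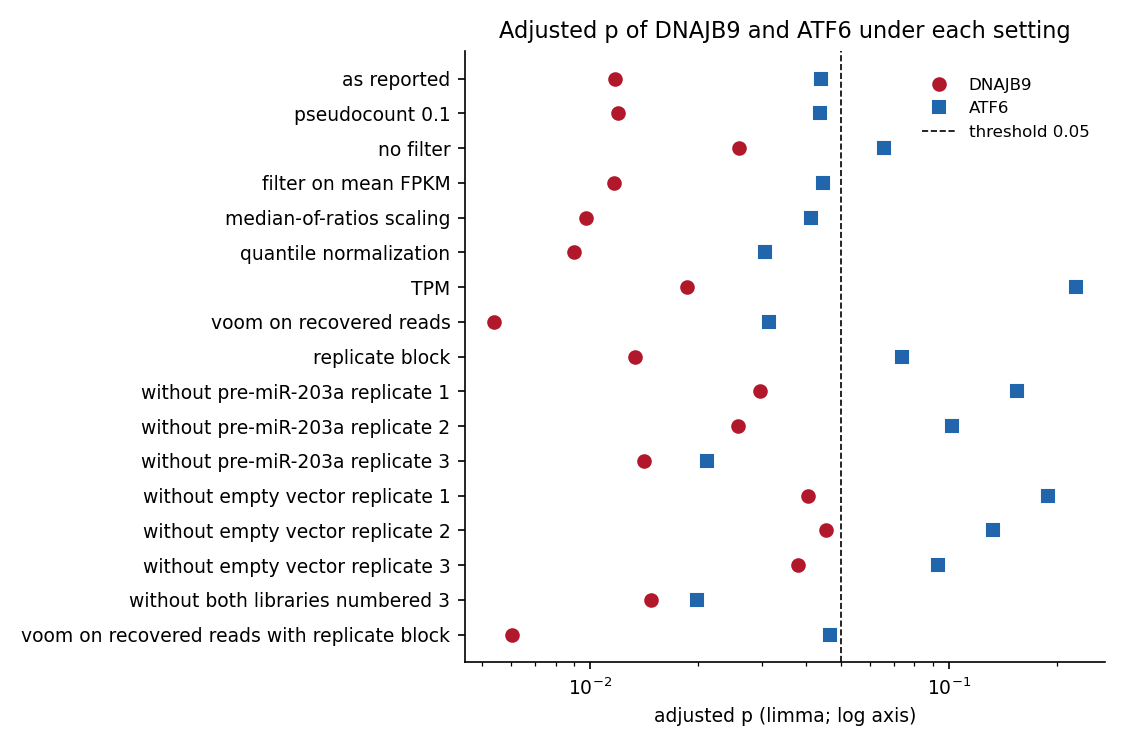
Adjusted p (x axis, log scale) of DNAJB9 (circles) and ATF6 (squares) as reported and under each of 16 other settings, with the threshold of 0.05 dashed. All DNAJB9 points lie left of the threshold, the highest at 0.0454, and 8 of the 16 alternatives put ATF6 right of it, up to 0.225.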

How the data were processed

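Values came from 6 RNA-seq libraries of MCF10A cells, grouped by sample title. The authors worked on build hg38 with featureCounts 2.0.0, DESeq2 1.28.1, MultiQC 1.6 and FastQC 0.11.5, per the submitters' processing notes. Strand setting, annotation release and aligner are not given in the sources used here. Deposited by the authors were FPKM, TPM, log2 fold changes, plain and adjusted p-values, and a baseMean signal, the mean of size-factor-scaled reads. Their comparison runs as control over pre-miR-203a, and its sign was turned.

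FPKM and baseMean together gave back whole reads (100% of values within 0.01 of a whole number), which give the depth over the listed features. The difference between groups was fitted with limma 3.58.1 in R 4.3.3 (trended, robust eBayes) on log2(FPKM + 1), with no other term. Features needed FPKM of at least 1 in 3 libraries, and p-values were adjusted over all of these by Benjamini-Hochberg. The added 1 understates changes of low genes. No count model was run, since the deposited unit is FPKM; limma-voom took its place as an alternative.

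The 10 genes and the lists were chosen with earlier results of these data known. The text names the 10 genes, up to 4 called genes of smallest p per list (2 of smallest p where none was called), the 3 features most correlated with DNAJB9, and MIR203A. Other genes (PNPLA8, THAP5, uncalled J proteins, MBTPS2, PPP1R15B, ATF4, ATF3, TRIB3, SEL1L, SPCS3 and the single markers) were named after their values were seen. Libraries with the same replicate number deviated together (correlations 0.433, 0.269 and 0.321). The unlike pair of pre-miR-203a library 2 and empty-vector library 1 reached 0.221, and no label states a shared batch or day. The main fit and the exact test left the numbers out, and a limma fit of log2(FPKM + 1) with the number as a block was run as an alternative. A limma-voom fit with the same block, not planned at the outset, was added. The blocked log2(FPKM + 1) value is given where it changes a call. Sequences are from RefSeq (GRCh38.p14; 10 of 10 promoters matched by symbol) and GENCODE 29. Python 3.11.15 ran with pandas 2.3.3 and numpy 2.4.6, exact tests with scipy 1.17.1, and plots with matplotlib 3.10.9. Alternatives covered pseudocount, filter, scaling, unit, test, block and left-out libraries.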

Additional observations from a re-analysis of the deposited data

How the results depend on the processing

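DNAJB9, DERL1, SEC24D and PSAT1 passed the limma threshold in 16 of 16 alternatives. With no filter on low values 1 of the 10 genes (DNAJB9), 1 stress sensor gene and 0 degradation genes were called higher. On TPM, which put the median of all features at −0.107 (log2), the counts were 1, 0 and 0, with 434 features higher and 1005 lower against 743 and 1035 as reported, and 1 chaperone was lower, as with quantile normalization. With the replicate block on log2(FPKM + 1), 1 of the 10 genes, 0 sensor genes and 0 degradation genes were called higher. DNAJB9, DERL1, SEC24D, PSAT1 and MTHFD2 passed under it. In limma-voom with that block, a setting not planned at the outset, ATF6, MBTPS1, OS9 and SYVN1 passed as well. Without both libraries numbered 3, a setting chosen after seeing the data, 1239 features were higher and 1951 lower. There 2 chaperones, 1 J protein, 2 secretory and 4 ATF4 branch genes were lower, and 2 J proteins and 1 secretory gene higher.

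Leaving out single libraries gave 323 to 919 features higher and 422 to 1338 lower. Of the 10 genes 1 to 2 were higher, and of the lists 0 to 2 sensor genes, 1 to 2 J proteins and 0 to 2 degradation genes. Lower calls numbered 0 to 2 chaperones, 1 to 2 secretory genes and 1 to 4 ATF4 branch genes. The sign of the uncalled XBP1 and DDIT3 was not stable: without single libraries XBP1 ran from −0.21 to 0.03 (0.032 without pre-miR-203a replicate 2, 0.029 without empty-vector replicate 1) and DDIT3 from −0.23 to 0.20, and without both libraries numbered 3 they stood at −0.24 and −0.31. DDIT3 was at 0.015 with median-of-ratios scaling and at 0.0093 with quantile normalization, at 0.017 without pre-miR-203a replicate 1, 0.066 without empty-vector replicate 1 and 0.012 without empty-vector replicate 2. The cause was not tested. DDIT3 had 56 reads in the shallowest library, the fewest of the 10 genes there, and the part of depth was not tested.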
